A study of Saccharomyces cerevisiae BY4741 with 2 samples.

Results

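Cytochrome c, the cytochrome bc1 complex and cytochrome oxidase form the last part of the mitochondrial respiratory chain, and 10 yeast genes of this part were examined in a strain lacking the RNA helicase gene DBP2. The genes were chosen by name and all rows bearing those names were kept, which gave 10 of the 2809 gene names in the deposited files and 12 rows. They were iso-1-cytochrome c (CYC1), the cytochrome c heme lyase (CYC3), the bc1 subunits QCR6, QCR8 and QCR10, the oxidase subunits COX5A, COX5B and COX6, the oxidase assembly factor COX16, and NDI1, which passes electrons from NADH into the chain. Most were named with their higher values in the deletion strain already known, so the values below describe these genes and test nothing about them.

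RNA of Saccharomyces cerevisiae, made strand-specific and depleted of ribosomal RNA, was sequenced from 2 haploid MATa strains grown at 30 °C to mid-log phase in rich medium with 2% glucose. The labels name BY4741 for both. The wild-type strain carried his3Δ1, leu2Δ0, met15Δ0 and also ura3Δ0. The deletion strain carried dbp2::KanMx together with ura3Δ0, leu2Δ0 and his3Δ0, and in addition TRP1, met- and lysΔ, so the strains differed at more loci than DBP2 and a lysine requirement is given for the deletion strain alone. The labels list 2 replicates of each strain, but the data analysed here hold 1 value per row and strain. No difference below therefore has a replicate check, an error or a test, and differences between the strains cannot be told apart from differences between cultures.

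In budding yeast, a single-protein dehydrogenase, Ndi1, takes the place of the large complex I of other eukaryotes. Through it, electrons from NADH inside the mitochondrion enter the chain. These electrons pass through ubiquinone to the bc1 complex, then to cytochrome c, and at last to cytochrome oxidase, which reduces oxygen to water. During growth on glucose this yeast mainly ferments, and many genes of the chain are held low by glucose repression. Their transcription is raised by the Hap2/3/4/5 complex, which binds the sequence CCAAT. Cox5a and Cox5b are alternative forms of the same oxidase subunit, the former made mainly in air and the latter mainly when oxygen is scarce.

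Because Hap2/3/4/5 acts through CCAAT, the 300 bases before the first coding base of each gene were searched for CCAAT on either strand (written ATTGG where it lies on the opposite strand). The motif was in 7 of the 10 genes (QCR6, QCR8, QCR10, COX5A, COX5B, COX6 and NDI1), and in 41.8% of the 6002 nuclear protein-coding genes of the reference. A match of 5 letters this frequent describes the sequence and does not show a bound site. CYC1, CYC3 and COX16 held no match in this window. An exact search of this kind does not show that these genes lack a site for the complex. The sites are shown with 10 bases on each side, 5′ to 3′ on the gene's own strand, from the RefSeq genome R64, and the capitals mark the motif.
QCR6, chrVI:224998-225022, minus strand: tgaccgtgcaCCAATgggaagcacg
QCR6, chrVI:224861-224885, minus strand: taagggcagtATTGGttggcgctta
QCR8, chrX:106132-106156, plus strand: ctatatacttCCAATataatatagt
QCR8, chrX:106213-106237, plus strand: tttttttaagCCAATgaaaatgaag
QCR10, chrVIII:107617-107641, plus strand: tgattttgatCCAATtaaaactaaa
COX5A, chrXIV:531545-531569, plus strand: caaaaatcgtCCAATagacgttttc
COX5A, chrXIV:531570-531594, plus strand: ctcgtttgtgATTGGccctacgttt
COX5B, chrIX:154965-154989, plus strand: atgacactcaCCAATttcttttttt
COX5B, chrIX:155140-155164, plus strand: aaacaatagaCCAATtatttcaatt
COX6, chrVIII:209409-209433, plus strand: tccatacgagCCAATcagggccccg
COX6, chrVIII:209480-209504, plus strand: aagggacctaATTGGtccggtcaaa
NDI1, chrXIII:30020-30044, minus strand: ttcattcggaCCAATcatatgaagg
NDI1, chrXIII:29878-29902, minus strand: gttttaactaCCAATtgaggagttt

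The motif starts between 72 and 292 bases before the first coding base in these genes. The COX6 site nearer its start lies inside the small upstream gene YHR050W-A. Among the compared genes for making the bc1 complex and the oxidase, 7 of 13 held the motif: COA2, COA1 and PET494, whose values were higher in the deletion strain, and CBP2, PET191, CMC1 and COX11, whose values were lower.

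All 7 electron carrier and subunit genes on a single row had higher values in the deletion strain. The values are FPKM, sequenced fragments per kilobase adjusted to the size of each library, and so take gene length into account. The log2 ratios add a pseudocount of 1 to both strains, and folds are plain ratios of the deposited values. Of the 8 members that stand on 1 row, 7 were higher in the deletion strain, while 46.0% of the 2211 genes compared were. At least 2-fold higher were 4 of the 8 (CYC1, QCR6, QCR10 and COX5B), beside 8.86% of all genes compared, and 0 of the 8 were at least 2-fold lower, beside 10.9%. Their median log2 ratio was 0.98 and that of all genes compared was -0.08. Since the members were chosen with these values known, the shares are given for scale and nothing is read from them.

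**Figure D1:**
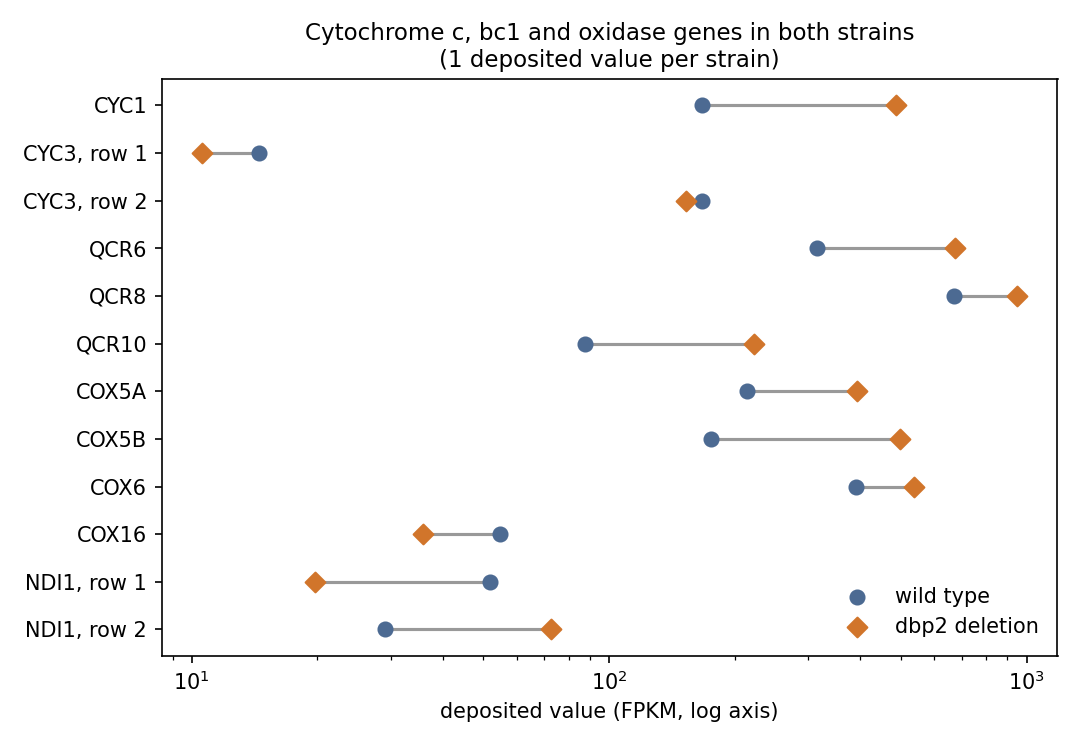
Deposited FPKM (log axis) of each row of the 10 genes in wild type (circles) and the dbp2 deletion (diamonds), 1 value per strain, with a line joining the values of a row. CYC1, the QCR genes, COX5A, COX5B and COX6 have the diamond to the right, COX16 and both CYC3 rows have it to the left, and the NDI1 rows point in opposite directions.

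Cytochrome c carries electrons from the bc1 complex to the oxidase, and its main form is encoded by CYC1 (YJR048W), a gene of 1 coding exon on chromosome X at 526335 to 526664. CYC1 was at 167 FPKM in wild type against 487 FPKM in dbp2Δ, 2.92-fold higher (log2 ratio 1.54), the largest ratio among the 8 members on 1 row. It moved from the 67.3rd to the 90.2nd percentile of the genes compared, a measure that no scaling between strains can change. The minor form, CYC7, was not analysed here. In R64, the coding sequences of CYC1 and CYC7 are 77.0% identical over 330 aligned bases and share an exact run of 35 bases, shown because a read lying wholly within it would match both genes. The read length is not given in the sources used here.
CYC1 and CYC7, longest shared run: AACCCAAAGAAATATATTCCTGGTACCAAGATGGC

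CYC3 (YAL039C, chromosome I at 68716 to 69525) encodes the lyase that joins heme to cytochrome c, without which the protein does not mature. It stands on 2 rows, and the files do not say what sets rows of the same name apart. The higher row was 167 FPKM in wild type against 153 FPKM in dbp2Δ (0.918 of wild type). The lower row was 14.5 FPKM and 10.6 FPKM. Neither row came near the ratio of CYC1, and after rescaling to equal sums over the protein-coding genes the CYC3 rows changed sign, to log2 ratios of 0.34 and 0.02.

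The bc1 complex takes electrons from ubiquinol, and 3 of its small subunits were among the members. QCR6 (YFR033C, chromosome VI at 224326 to 224769), the acidic hinge subunit beside cytochrome c1, was at 315 FPKM in wild type against 672 FPKM in dbp2Δ, 2.14-fold higher. QCR10 (YHR001W-A, chromosome VIII at 107826 to 108122), the smallest of the 3 genes by coding length with 234 bases, was at 87.5 FPKM and 222 FPKM, 2.54-fold higher. QCR8 (YJL166W, chromosome X at 106434 to 106718), a subunit in contact with cytochrome b, was the highest of all members at 672 FPKM and 947 FPKM, and differed by 1.41-fold. The subunits thus differed by unequal amounts: per length, QCR8 stood 7.68 times above QCR10 in wild type and 4.26 times above it in the deletion strain. A further bc1 gene, the core subunit QCR2, was no member and stood at 223 FPKM and 545 FPKM. With it, 4 of the 9 nuclear bc1 subunit genes were in the rows. All 4 had higher values, beside 46.0% of all genes compared, and 3 were at least 2-fold higher, beside 8.86%. Their median log2 ratio was 1.19. QCR2 was the only 1 of the 4 outside the chosen members, so nothing is read from these shares.

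Cytochrome oxidase ends the chain. Its subunit Vb gene COX5B (YIL111W, chromosome IX at 155222 to 155765) was at 176 FPKM in wild type against 496 FPKM in dbp2Δ, 2.82-fold higher. The other form, COX5A (YNL052W, chromosome XIV at 531725 to 532186), was at 214 FPKM and 393 FPKM, 1.84-fold higher. Subunit VI, COX6 (YHR051W, chromosome VIII at 209705 to 210151), was at 389 FPKM and 537 FPKM, 1.38-fold higher and the smallest difference among the subunit genes. The order of the Cox5 forms was therefore not the same in both strains: COX5A was 1.22 times COX5B in wild type, and COX5B was 1.26 times COX5A in the deletion strain. Of the summed level of both forms, COX5B made up 45.1% in wild type and 55.8% in the deletion strain. Ratios within a strain do not depend on how the strains were scaled, but with 1 value per strain their error is unknown. The coding sequences of COX5A and COX5B are 66.4% identical over 453 aligned bases, and their longest exact shared run is 12 bases.
COX5A and COX5B, longest shared run: AGAAGACCTGTA

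COX5B is known as a target of the repressor Rox1, which is made in air and whose recognition sequence is centred on ATTGTT, so the stretch from 300 to 91 bases before its first coding base is shown (chrIX:154922-155131, plus strand, R64). The capitals mark the CCAAT and ATTGTT letters. The search for ATTGTT was chosen after the values were seen.
COX5B, upstream stretch: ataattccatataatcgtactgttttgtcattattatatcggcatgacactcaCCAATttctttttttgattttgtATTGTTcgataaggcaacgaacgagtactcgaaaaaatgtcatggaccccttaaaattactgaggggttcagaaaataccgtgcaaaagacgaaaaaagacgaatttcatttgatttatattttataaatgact

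ATTGTT on either strand was in 34.1% of all 6002 windows of 300 bases and in 5 of the 10 members. These were QCR8, COX5A, COX5B, COX6 and COX16, so the motif did not set COX5B apart from COX5A. ANB1, another Rox1 target and the gene that lies head to head with CYC1, held it at 3 places, and COX5B at 2, the second as AACAAT at 81 bases before the first coding base, outside the stretch shown. The ANB1 sites are shown, with 10 bases on each side, for comparison with the COX5B stretch (minus strand, R64).
ANB1, chrX:525647-525672: ttttcgccctATTGTTctcgagccta
ANB1, chrX:525580-525605: ttcctattccATTGTTctctttggta
ANB1, chrX:525559-525584: tggtaaactcATTGTTgtcggaactc

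COX5B and ANB1 did not go the same way, and whether Rox1 acted on either gene here was not tested. ANB1 was at 292 FPKM in wild type against 27.8 FPKM in dbp2Δ, 10.5-fold lower. COX5B stood at 0.60 of ANB1 in wild type and at 17.9 times ANB1 in the deletion strain.

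COX5B and QCR10 are the members with an intron, a feature that the choice of genes did not use. In R64, 5.30% of nuclear protein-coding genes have more than 1 coding segment. Both introns lie at the very start of the coding sequence: the first exon of COX5B holds 1 coding base, so that its start codon is split, and that of QCR10 holds 6. The introns are shown whole, with the 5′ splice site, the branch point TACTAAC and the last 3 bases in capitals.
QCR10, chrVIII:107832-107894, plus strand: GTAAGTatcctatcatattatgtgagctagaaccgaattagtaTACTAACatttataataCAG
COX5B, chrIX:155223-155310, plus strand: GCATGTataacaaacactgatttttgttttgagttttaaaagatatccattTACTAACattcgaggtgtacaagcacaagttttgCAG

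The COX5B intron of 88 bases begins with GC in place of the usual GT. The QCR10 intron has 63 bases. The values are for whole genes, so spliced and unspliced RNA cannot be told apart in the 2.82-fold and 2.54-fold higher values of these genes.

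COX16 (YJL003W, chromosome X at 432644 to 433000), an inner membrane protein needed to assemble the oxidase, was at 54.7 FPKM in wild type against 35.8 FPKM in dbp2Δ, 1.53-fold lower. It was the sole member on 1 row with a lower value, and its log2 ratio of -0.60 stayed below 0 (-0.14) with equal protein-coding sums. It was also the lowest of the 8 in both strains. Its percentile among the genes compared went from 38.9 to 25.7, whereas each of the 7 carrier and subunit members moved up.

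The genes that build the oxidase, COX16 among them, had values on both sides. Of 35 such genes on a list taken from textbook knowledge, 9 were in the rows and all 9 were compared. Their median log2 ratio was -0.34, with 3 lower and 0 higher past the 2-fold limit. Of all genes compared, 10.9% were lower and 8.86% higher past that limit. COX10, which makes the heme a precursor, was at 101 FPKM and 39.2 FPKM. COX11, which delivers copper to the oxidase, was at 147 FPKM and 64.8 FPKM, and CMC1, a copper-handling protein, was at 562 FPKM and 261 FPKM. These genes lay on the other side from the oxidase subunits as deposited. In contrast, the assembly factor COA2 was at 490 FPKM and 852 FPKM. With equal protein-coding sums the list's median was 0.13, with 0 of its genes lower and 1 higher past that limit. Of all genes compared, 4.57% were then lower and 19.9% higher. The lower calls thus depended on the scaling.

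Of 11 genes that build the bc1 complex, 4 were in the rows and none reached 2-fold in either direction (median log2 ratio 0.01, and 0.47 with equal protein-coding sums). Past 2-fold, 8.86% of all genes compared were higher and 10.9% lower. CBP1, which stabilises the mitochondrial cytochrome b RNA, was at 91.9 FPKM and 114 FPKM. CBT1, which acts in the processing of that RNA, was at 434 FPKM and 288 FPKM. CYT2, the heme lyase for cytochrome c1, was at 33.5 FPKM and 36.0 FPKM, and CBP2, a splicing factor for cytochrome b RNA, was at 49.4 FPKM and 46.7 FPKM. The 8 subunit and carrier genes compared, of which 7 were chosen with their values known, lay between log2 ratios of 0.46 and 1.54. The 13 biogenesis genes lay between -1.34 and 0.80, so the ranges overlapped and COA2 stood above COX6 and QCR8.

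**Figure D2:**
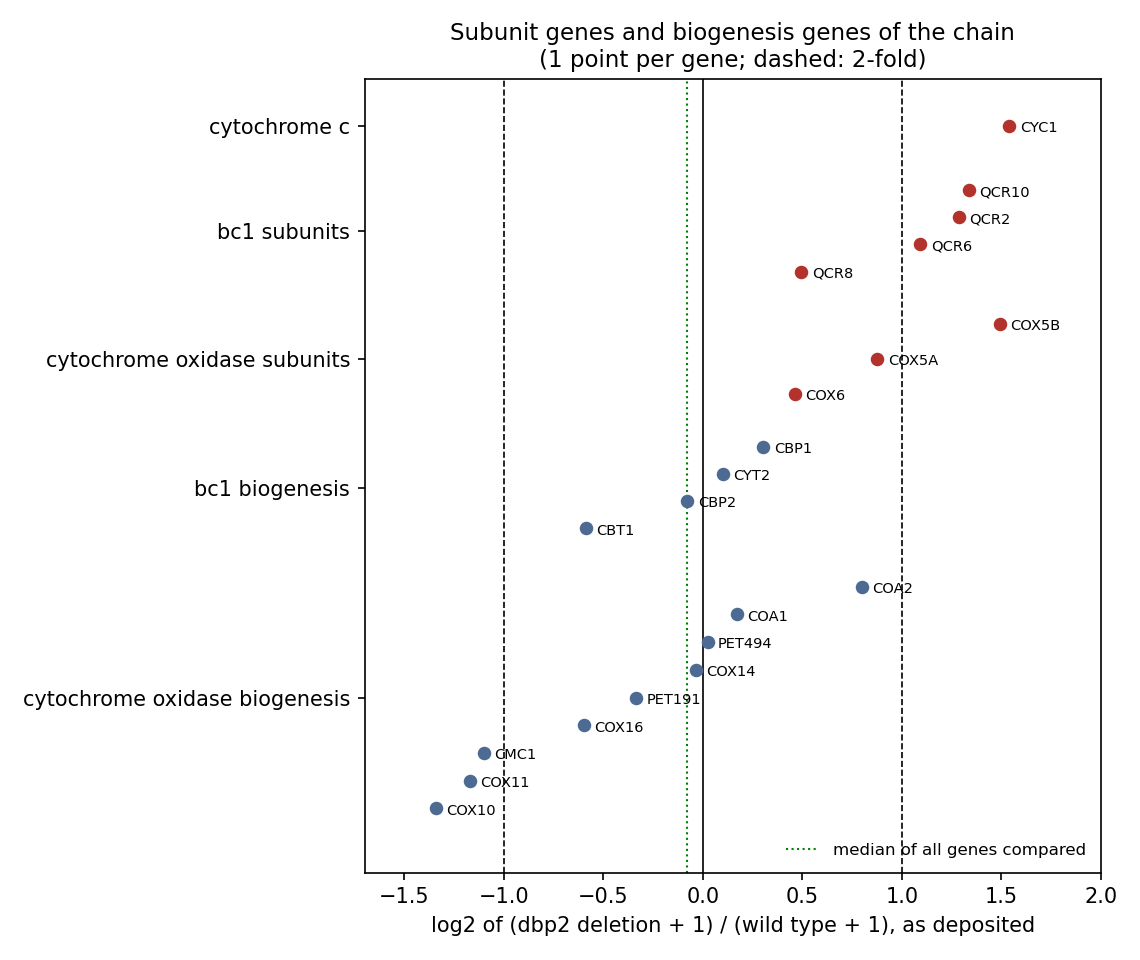
Log2 ratio of dbp2 deletion over wild type (pseudocount of 1) for each compared gene of the cytochrome c, bc1 and oxidase lists, with subunit and carrier genes in red and biogenesis genes in blue. The subunit genes lie between 0.46 and 1.54, and the biogenesis genes between -1.34 (COX10) and 0.80 (COA2), around the median of all genes compared at -0.08 (dotted line).

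NDI1 (YML120C, chromosome XIII at 28266 to 29807) stands on 2 rows that differed in opposite directions. The row listed first was 51.7 FPKM in wild type against 19.8 FPKM in dbp2Δ, 2.61-fold lower. The row listed second was 29.1 FPKM and 72.6 FPKM, 2.50-fold higher. Which of these rows holds the NDI1 messenger RNA is not stated in the files, so no direction is given for this gene. Opposite rows are common: among 258 names on 2 rows that passed the same limits on level, 55.8% had rows in opposite directions. Rows past 2-fold in both directions for the same name, as at NDI1, were found for 24 names (9.30%).

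Another of these 24 names was HAP4, the regulated subunit of the Hap2/3/4/5 activator and the only gene in the rows out of 11 listed regulators of respiration. Its rows were 13.5 FPKM in wild type against 49.0 FPKM in dbp2Δ, and 15.7 FPKM and 5.31 FPKM. GUT2, the glycerol phosphate dehydrogenase that also feeds electrons to ubiquinone, had rows of 22.6 FPKM and 68.6 FPKM, and of 10.6 FPKM and 5.97 FPKM.

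The levels of the members, which FPKM allows to be compared per length, kept a similar order in both strains at the ends and changed in the middle. In wild type the order from the top was QCR8, COX6, QCR6, COX5A, COX5B, CYC1, QCR10 and COX16. In the deletion strain it was QCR8, QCR6, COX6, COX5B, CYC1, COX5A, QCR10 and COX16. Without replicates it cannot be said which neighbours in these orders differ. The range from the lowest to the highest subunit or carrier gene was 87.5 to 672 FPKM in wild type and 222 to 947 FPKM in the deletion strain.

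**Figure D3:**
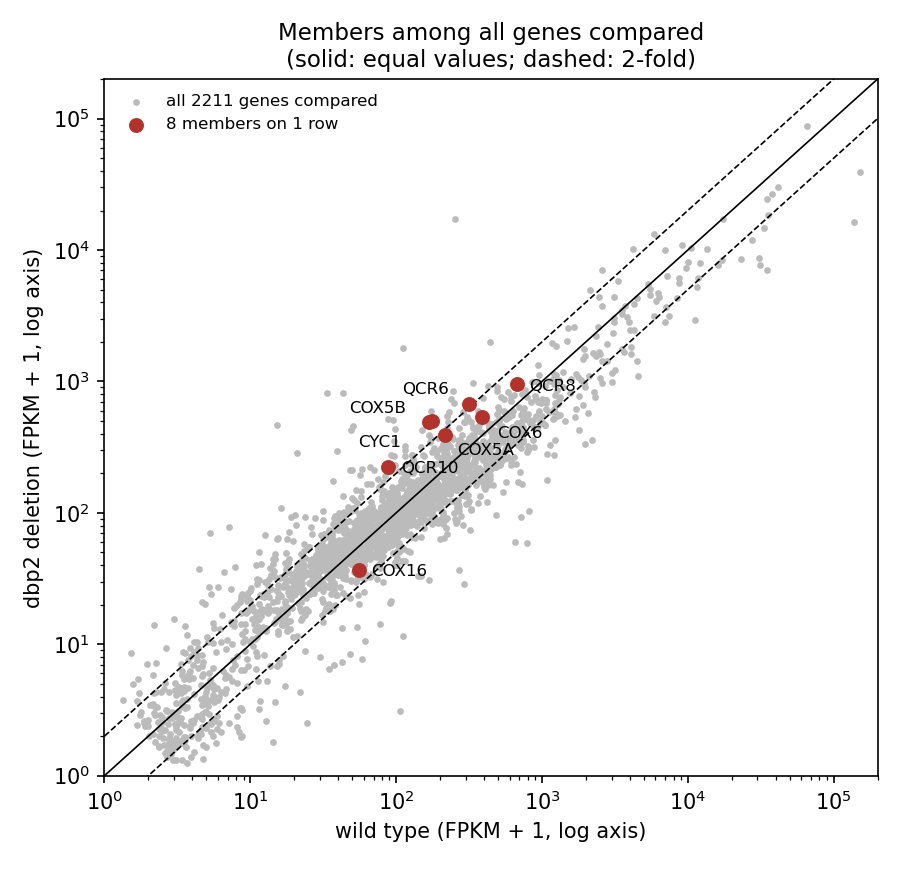
Wild type against dbp2 deletion (FPKM + 1, both axes log) for the 2211 genes compared (grey) and the 8 members on 1 row (red), with lines for equal values (solid) and 2-fold differences (dashed). CYC1, COX5B, QCR10 and QCR6 lie at or beyond the upper 2-fold line, QCR8, COX6 and COX5A between it and the line of equal values, and COX16 below the latter.

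For scale, the 1354 genes whose mean over both strains lay between those of COX16 and QCR8 (45.3 to 810 FPKM) had a median log2 ratio of -0.13, and 7.16% were at least 2-fold higher. The compared genes closest to CYC1 in both strains, by distance on the log2 scale with the pseudocount over 2 values, were MIR1 (159 FPKM and 472 FPKM), the phosphate carrier of the mitochondrial inner membrane, then COX5B itself and the cell wall gene HSP150 (151 FPKM and 427 FPKM). Closest to COX5A were the plasma membrane transporter gene AQR1 (218 FPKM and 400 FPKM), the vacuolar copper transporter gene CTR2 (225 FPKM and 374 FPKM) and the transcription factor subunit gene TAF14 (235 FPKM and 380 FPKM). With 1 value per strain, likeness means only a similar level and a similar ratio.

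The coding genes next to the members on the chromosome were examined as well. Of 20 such neighbours, 16 were compared, of which 8 had higher values in the deletion strain, beside 46.0% of all genes compared. Past the 2-fold limit, 1 was higher and 1 lower, beside 8.86% and 10.9% of all genes compared. Their median log2 ratio was -0.08, the same as that of all genes compared. At CYC1, the intergenic stretch of 953 bases separated a 2.92-fold higher gene from the 10.5-fold lower ANB1. Downstream of COX5B on the same strand, HPM1 was at 431 FPKM in wild type against 217 FPKM in dbp2Δ, and upstream HOS4 was at 119 FPKM and 99.2 FPKM. Both flanking genes were thus lower as deposited while COX5B was higher, and with equal protein-coding sums HOS4 was higher as well (0.20) and HPM1 stayed lower (-0.52). The neighbour at least 2-fold higher was YML119W, which lies head to head with NDI1 at a distance of 803 bases and was at 56.9 FPKM and 145 FPKM (2.55-fold). The gene upstream of CYC3, CDC19, was listed at 0 in the deletion strain and has no ratio.

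**Figure D4:**
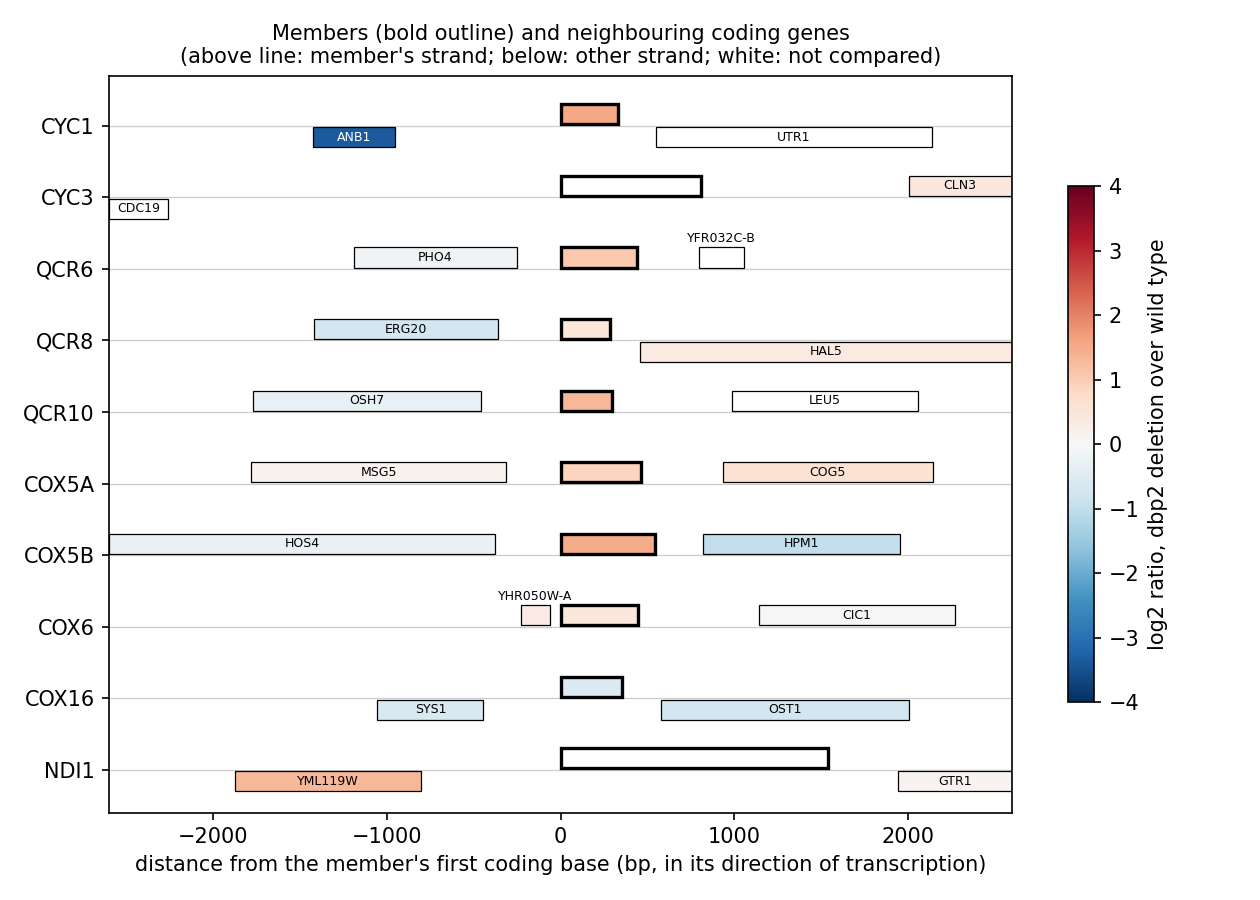
Each member (bold outline) with its neighbouring coding genes, by distance in bp from the member's first coding base in its direction of transcription, coloured by log2 ratio of dbp2 deletion over wild type, and white where no ratio was formed. Boxes above a line are on the member's strand and boxes below it on the other strand. CYC1 (1.54) and ANB1 (-3.35) show the largest contrast.

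For the whole files, the deposited values summed to 5210212 FPKM in wild type against 1724406 FPKM in dbp2Δ over 3146 rows, and depth is unknown because no counts were given. DBP2 was at 1540 FPKM on its highest row in wild type, against 2.52 FPKM in dbp2Δ. The 4 a-cell marker genes in the rows were at 32.2 FPKM or more in both strains. The 4 alpha-cell marker genes in the rows did not exceed 33.8 FPKM in either. Of 5 sporulation genes in the rows, the 3 on 1 row did not exceed 15.6 FPKM, SPO11 did not exceed 22.7 FPKM, and IME2 had a row at 23.3 FPKM or less and another of 5727 FPKM in wild type that was at 0 in dbp2Δ. In these bulk cultures, more cells with a transcript and more transcript per cell cannot be told apart. The split of all genes moved with scaling: with equal protein-coding sums log2 ratios were raised by up to 0.47, 19.9% of genes passed 2-fold upward and 4.57% downward, and the members at least 2-fold higher were then 5 of 8, with COX5A added.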

How the data were processed

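Values were taken as FPKM as deposited by the authors, with 1 value per row and strain; Cuffdiff 2.1.1 and the build sacCer3 are named, per the submitters' processing notes. The unit was inferred from the values and from Cuffdiff, which can also list a failed estimate as 0. For the way replicates were combined and strains scaled, the aligner, the annotation and the handling of strand, nothing is given in the sources used here.

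Rows were paired between strains by their identical order. Genes compared were those on 1 row naming 1 gene, not at 0 in either strain and averaging at least 1 FPKM (2211 genes). Log2 ratios used a pseudocount of 1, and the limit was 2-fold. No test was possible. Members, lists and motifs were chosen with earlier results of these data known. All members were named, together with up to 4 genes of each list by size of log2 ratio, coding neighbours in the rows, and the 3 genes nearest to CYC1 and to COX5A. SFC1 was named in addition. Sequences and positions came from RefSeq R64 (the assembly called sacCer3), to which all 10 member names were matched. Equal protein-coding sums used a factor of 1.38 on the deletion strain. Coding sequences were aligned globally (match 1, mismatch -1, gap opening -5, extension -0.5). Tools were Python 3.11.15, numpy 2.4.6, pandas 2.3.3, biopython 1.88 and matplotlib 3.10.9, and the ratio step was tested on simulated data.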

Additional observations from a re-analysis of the deposited data

How the results depend on the processing

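No paired analysis was possible because the data hold 1 value per strain, and no replicate could be left out. The number of members at least 2-fold higher was 4 of 8 (8.86% of all genes compared). It was also 4 with the other pseudocounts (9.91% and 5.02%), the level filters (8.55% and 8.60%) and the median of all genes at 0 (10.1%), and 4 of 10 with repeated rows summed (9.50%). It was 5 of 8 with equal protein-coding sums (19.9%) and with a 1.5-fold limit (18.6%, with 1 member lower), 5 of 12 rows with every row counted (10.4%, with 1 row lower), and 0 of 8 with a 3-fold limit (2.94%). The 7 members on 1 row with higher values stayed higher under both pseudocounts and both scalings. This was fixed in advance, because a pseudocount cannot change the sign of a ratio and both scalings raise the deletion values. The members' median log2 ratio of 0.98 became 0.99 and 0.96 with pseudocounts of 0.1 and 10, 1.45 with equal protein-coding sums, 1.06 with the median of all genes set to 0, 0.69 with every row of a repeated name counted or with such rows summed, and 1.09 without COX16, an alternative chosen after seeing the data. The level filters did not move it. Over all pathway lists together, 7 genes were higher and 7 lower past 2-fold as deposited. Of the 7 higher, 4 were the members CYC1, QCR6, QCR10 and COX5B, so these counts are not read as a balance. With equal protein-coding sums, which raise every ratio, 9 were higher and 1 (ANB1) lower. The share of all genes compared then went from 8.86% to 19.9% higher and from 10.9% to 4.57% lower. Depth is unknown, so counting error could not be given for any value, and the deposited scaling between strains could not be checked.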

Other observations

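The coenzyme Q synthesis genes and the inner membrane carrier genes in the rows each had values on both sides. Of 10 coenzyme Q synthesis genes, 4 were in the rows and compared, with 2 lower and 1 higher in dbp2Δ past the 2-fold limit. Of all genes compared, 10.9% were lower and 8.86% higher past it. The median log2 ratio of the 4 was -0.68, and -0.22 with equal protein-coding sums. COQ5, a methyltransferase of the pathway, was at 610 FPKM in wild type against 232 FPKM in dbp2Δ, and COQ2, which attaches the isoprenoid tail, was at 407 FPKM and 171 FPKM. COQ10, a coenzyme Q-binding protein, was at 56.6 FPKM and 130 FPKM.

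Of 15 inner membrane carrier genes, 6 were in the rows and 5 were compared, with a median log2 ratio of -0.78 (-0.32 with equal protein-coding sums). The phosphate carrier gene MIR1 was at 159 FPKM and 472 FPKM and was the only one of the 5 with a higher value as deposited. The carrier gene not compared, SFC1, stands on 2 rows, and both were higher in dbp2Δ as well. Its row listed first was at only 0.558 FPKM in wild type and was 8.96-fold higher in dbp2Δ. Its row listed second was at 12.3 FPKM and 21.1 FPKM, 1.71-fold higher. The oxaloacetate carrier gene OAC1 was at 1001 FPKM and 547 FPKM, the citrate carrier gene CTP1 at 147 FPKM and 84.9 FPKM, and the flavin carrier gene FLX1 at 176 FPKM and 80.8 FPKM. Of the mitochondrially encoded chain genes, COX3 was in the rows and was listed at 0 in both strains.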
